A study of Homo sapiens with 9 samples.

Results

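The ISG15 conjugation and PARP9 group is a set of 10 genes: ISG15, UBA7, UBE2L6, HERC5, HERC6, USP18, PARP9, DTX3L, PARP12 and PARP14. The members were taken by gene symbol from the table of raw read counts. Each symbol matched 1 row, so the set holds 10 of the 58735 genes in the table. All members passed the filter on low counts in every comparison.

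ISG15 is a small ubiquitin-like protein whose gene is switched on by interferons. It is attached to other proteins by a short enzyme chain, in which UBA7 activates it, UBE2L6 carries it and HERC5 passes it to its targets, and USP18 takes it off again. PARP9, DTX3L, PARP12 and PARP14 are also interferon-induced and act in ADP-ribosylation, the transfer of ADP-ribose onto proteins, with DTX3L working as a ubiquitin ligase bound to PARP9.

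Expression was measured by RNA sequencing of poly(A) RNA from A549, an established human lung adenocarcinoma cell line. Cells in each of 3 groups had been transfected with jetPRIME and carried a control plasmid (labelled PC3.1, PC3.2 and PC3.3 in its 3 libraries), a plasmid for the long non-coding RNA LINC00996, or a plasmid for the long non-coding RNA AP001189.3. Each group had 3 libraries. Nothing in the sources used here says that the replicates came from separately transfected cultures, so p-values measure the spread between these libraries, which may be technical. The study built prognostic lncRNA models for lung adenocarcinoma and squamous cell carcinoma, and reported RNA sequencing results for LINC00996, from its adenocarcinoma model. AP001189.3 came from its squamous cell model, and for it the paper gives the raw data without describing results. Transient transfection leaves a mixture of cells with and without plasmid, and a plasmid forces the lncRNA far above its level in the control. The lncRNA plasmids were custom-made by VectorBuilder, which the paper does not say of the control plasmid. In the comparisons with the control, effects of the plasmid itself, its dose or the transfection efficiency therefore cannot be told apart from those of the lncRNA.

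Counts per library summed to between 15272450 and 18125447. LINC00996 had between 4 and 9 counts in the control and AP001189.3 libraries and between 4373 and 5952 in its own group, while AP001189.3 had between 0 and 2 counts elsewhere and between 1660 and 2378 in its own group. All 9 markers listed for the A549 line were detected. Summed over these markers the level was between 13028 and 13195 CPM (counts scaled to a common library size) in the control group, between 17067 and 19512 CPM in the LINC00996 group and between 14161 and 14796 CPM in the AP001189.3 group, and its part in the results was not tested. The markers did not move together, as the mean level of ALDH1A1 was 2933 CPM in the control and 5836 CPM in the LINC00996 group and that of CDH1 was 318 and 171 CPM. Of the 4 leukocyte markers 2 passed 3 counts in any library, and their summed level stayed at or below 0.748 CPM in every library. The 3 fibroblast markers, of which COL1A1 alone passed 3 counts and DCN and COL1A2 had at most 1, summed to between 19.8 and 22.7 CPM in the control and between 11.97 and 15.1 CPM in the LINC00996 group, and the 2 endothelial markers, of which PECAM1 alone passed 3 counts, to between 7.48 and 8.85 CPM and between 2.58 and 3.49 CPM. With AP001189.3 these sums were between 18.3 and 21.4 CPM and between 4.13 and 5.27 CPM, and their part in the results was not tested. Replicate 1 of the LINC00996 group stood apart from replicates 2 and 3. Chi-square per gene was 20.1 and 29.7 against them and 3.13 between them. Across 16552 genes the deviation of this library from the mean of the 9 libraries rose with GC content (Spearman correlation 0.43), whereas this correlation was -0.24 and -0.42 in the other libraries of its group. The correlation was between -0.28 and -0.0036 in the control group and between 0.20 and 0.35 in the AP001189.3 group, so GC content moved with that group.

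The promoters of several members carry the interferon-stimulated response element (ISRE), a site through which interferon signalling is known to act. RefSeq promoter windows on GRCh38.p14, from 250 bases before to 50 after a start site, matched 8 of the 10 members. None was matched for UBA7 or USP18. The ISRE core was searched as GAAANNGAAA on both strands. It occurred in the windows of ISG15, HERC5, PARP9, DTX3L, PARP12 and PARP14, that is in 6 of the 8 members with a window, against 1195 of all 27305 genes with windows of the same length (4.38%) or 1255 of all 35116 windows (3.57%). It did not occur in the windows of HERC6 or UBE2L6. Both UBE2L6 windows lay within the gene as deposited, with 259 and 300 of their 300 bases in its annotated exons. Bases before the deposited start of UBE2L6 were therefore not searched. The stretches below are shown because HERC5 and HERC6, which are neighbours on chromosome 4, differed in whether they passed the test below in the comparisons with the LINC00996 group, and because ISG15 had the highest level. They are written 5′ to 3′ on the strand of the gene, with the matches in capitals, and leave out the annotated exons of the members. They are chr1:1013247-1013422 (plus strand) for ISG15, chr4:88456869-88457116 (plus strand) for HERC5 and chr4:88378602-88378738 (plus strand) for HERC6.
ISG15: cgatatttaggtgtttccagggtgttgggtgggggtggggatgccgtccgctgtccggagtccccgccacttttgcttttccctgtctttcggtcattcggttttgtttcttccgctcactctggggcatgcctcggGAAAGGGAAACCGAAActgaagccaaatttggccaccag
HERC5: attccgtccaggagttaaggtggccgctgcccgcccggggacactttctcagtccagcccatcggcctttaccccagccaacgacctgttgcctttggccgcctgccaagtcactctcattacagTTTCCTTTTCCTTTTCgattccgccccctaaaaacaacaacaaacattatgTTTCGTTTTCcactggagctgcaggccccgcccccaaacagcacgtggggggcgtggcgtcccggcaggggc
HERC6: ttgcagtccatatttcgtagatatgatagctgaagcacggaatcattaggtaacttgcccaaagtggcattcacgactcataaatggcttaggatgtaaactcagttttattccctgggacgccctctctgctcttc

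ISG15 held 2 overlapping matches, GAAAGGGAAA and GAAACCGAAA. HERC5 held 3 matches on the opposite strand, of which 2 overlap. PARP9, PARP12 and PARP14 are shown with 10 bases on each side of the match, since no long stretch free of annotated exons of the members held their matches. These stretches are chr3:122564322-122564351 (minus strand) for PARP9, chr7:140062942-140062971 (minus strand) for PARP12 and chr3:122680800-122680829 (plus strand) for PARP14.
PARP9: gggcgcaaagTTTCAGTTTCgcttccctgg
PARP12: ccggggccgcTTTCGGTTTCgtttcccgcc
PARP14: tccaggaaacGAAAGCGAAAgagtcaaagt

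The PARP9 match is also the DTX3L match, read from the other strand as GAAACTGAAA, because the genes lie on opposite strands and these windows share 137 bases. A second window of PARP9 held no match and shared 0 bases with that of DTX3L. The PARP14 window also held a match to the GAS element, TTCCAGGAA, on the plus strand just before the ISRE core. The GAS element was searched as TTCNNNGAA, which reads the same on both strands, and occurred in 7.66% of all windows. A match describes letters in the window and is not a measurement of binding.

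Per unit of transcript length, ISG15 was the most abundant member in every group. Its level in the control group was 1105 ± 86.4 FPKM (fragments scaled by gene length and library size, SD, n = 3), followed by its carrier enzyme UBE2L6 at 152 ± 5.56 FPKM. The next levels in the control group were those of DTX3L (70.1 FPKM), PARP14 (60.8 FPKM), HERC5 (53.2 FPKM), USP18 (47.7 FPKM), PARP12 (42.3 FPKM) and PARP9 (38.7 FPKM). UBA7 at 11.2 FPKM and HERC6 at 10.9 FPKM had the lowest levels, and their libraries overlapped. The activating enzyme of the chain was therefore measured at a far lower level than the modifier it activates. In the LINC00996 group the members at ranks 3 to 8, from DTX3L at 52.3 FPKM to PARP12 at 26.9 FPKM, overlapped with their neighbours in the order. HERC5 had rank 5 in the control group and rank 7 there (29.4 ± 5.20 FPKM), and HERC6 (12.4 FPKM) lay above UBA7 (6.79 FPKM) without overlap. In the AP001189.3 group HERC5 (65.7 FPKM) and PARP14 (65.4 FPKM) overlapped with each other, as did PARP14 and USP18 (59.9 FPKM), and every other pair of neighbours was apart.

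The members together took between 0.345% and 0.364% of all counts in the control libraries. Their share was lower in the LINC00996 group, between 0.239% and 0.255%, and higher in the AP001189.3 group, between 0.378% and 0.401%. The 3 groups did not overlap in this share.

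**Figure D1:**
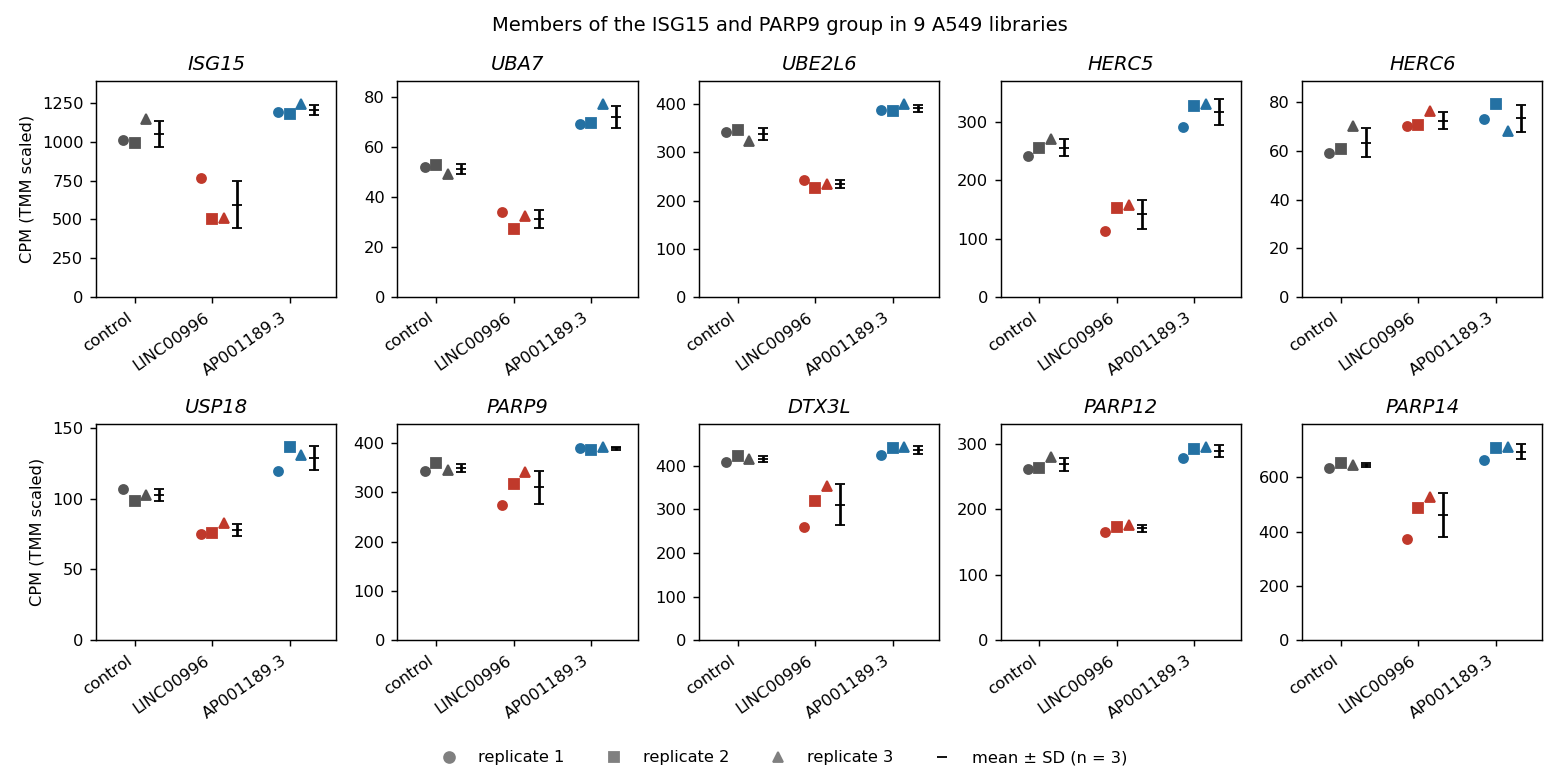
Level of each of the 10 members (CPM, scaled by TMM, linear axis from 0) in the 9 libraries, with 1 point per library, its shape giving the replicate, and the black mark giving the mean ± SD of the group (n = 3). ISG15 lay between 504 and 768 CPM in the LINC00996 group and at 992 CPM or more in the other groups, whereas HERC6 overlapped between the control and the LINC00996 groups.

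In the LINC00996 group, 8 of the 10 members fell against the control and 0 rose, by edgeR (quasi-likelihood test, adjusted over all 16097 genes tested by Benjamini-Hochberg). The fallers were ISG15, its enzymes UBA7, UBE2L6 and HERC5, its protease USP18, and DTX3L, PARP12 and PARP14. HERC6 and PARP9 did not pass the test. Among all genes tested 11.6% were called lower and 10.7% were called higher (48.0% of the calls were higher, and 54.6% by library size alone), and the median log2 fold change was -0.51 over the members and 0.01 over all genes. The count of members called higher was 0 also at an unadjusted p under 0.05 and by DESeq2, which called the same number lower, 8. The groups did not overlap for 9 members, against 40.4% of all genes tested. Without replicate 1 of the LINC00996 group 8 members were called lower and 1 higher, HERC6. In bulk RNA, fewer cells expressing a gene and less RNA per cell cannot be told apart.

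ISG15 (ENSG00000187608, GRCh38 chromosome 1, 1001138 to 1014540, plus strand) had 1012, 992 and 1146 CPM in the control libraries and 768, 504 and 509 CPM in the LINC00996 libraries. Every LINC00996 library lay below every control library, and replicate 1 lay above the other libraries of its group. The log2 fold change was -0.82 (SE 0.15), which means that the level fell by 43.5% (edgeR adjusted p = 0.00194). It was -1.05 without that replicate. Genes overlapping ISG15 on the other strand had counts that amounted to 0.0713% of those of ISG15.

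UBA7 (ENSG00000182179, chromosome 3, 49805207 to 49813946, minus strand), the activating enzyme dedicated to ISG15, had 52.0, 53.0 and 49.1 CPM in the control libraries and 34.2, 27.3 and 32.3 CPM in the LINC00996 libraries. The groups were well apart. The log2 fold change was -0.72 (SE 0.11, edgeR adjusted p = 0.000968). UBE2L6 (ENSG00000156587, chromosome 11, 57551656 to 57568284, minus strand), which carries ISG15 after activation, had 343, 346 and 324 CPM in the control and 242, 225 and 234 CPM in the LINC00996 libraries. Its replicates were among the closest of the set, with an SD of 8.25 CPM in the LINC00996 group. The log2 fold change was -0.53 (SE 0.08, edgeR adjusted p = 0.000919), and the level fell by 30.9%.

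HERC5 (ENSG00000138646, chromosome 4, 88457117 to 88506163, plus strand) is the main ligase that passes ISG15 to newly made proteins in human cells. Its level was 242, 255 and 271 CPM in the control libraries and 114, 153 and 159 CPM in the LINC00996 libraries, without overlap. HERC5 had a log2 fold change of -0.86 (SE 0.12, edgeR adjusted p = 0.00049), and of -0.72 without replicate 1 of the LINC00996 group. HERC6 (ENSG00000138642, chromosome 4, 88378739 to 88443111, plus strand), a relative of HERC5 that serves as the ISG15 ligase in mice, ends 14005 bases before HERC5 begins. HERC6 had 59.3, 61.0 and 70.2 CPM in the control and 70.1, 70.8 and 76.6 CPM in the LINC00996 libraries. The groups met at about 70 CPM, and the log2 difference of 0.19 had a 95% interval from -0.03 to 0.41 (edgeR adjusted p = 0.208). Without replicate 1 of the LINC00996 group it was 0.22 and passed the threshold (edgeR adjusted p = 0.0373).

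The ratio of HERC5 to HERC6 levels in FPKM, taken within each library, was 4.92 ± 0.20 under the control plasmid and 2.37 ± 0.35 under the LINC00996 plasmid (SD, n = 3). With AP001189.3 it was 5.25 ± 0.57. The LINC00996 libraries did not overlap with the others in this ratio, and no test was run on it.

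**Figure D2:**
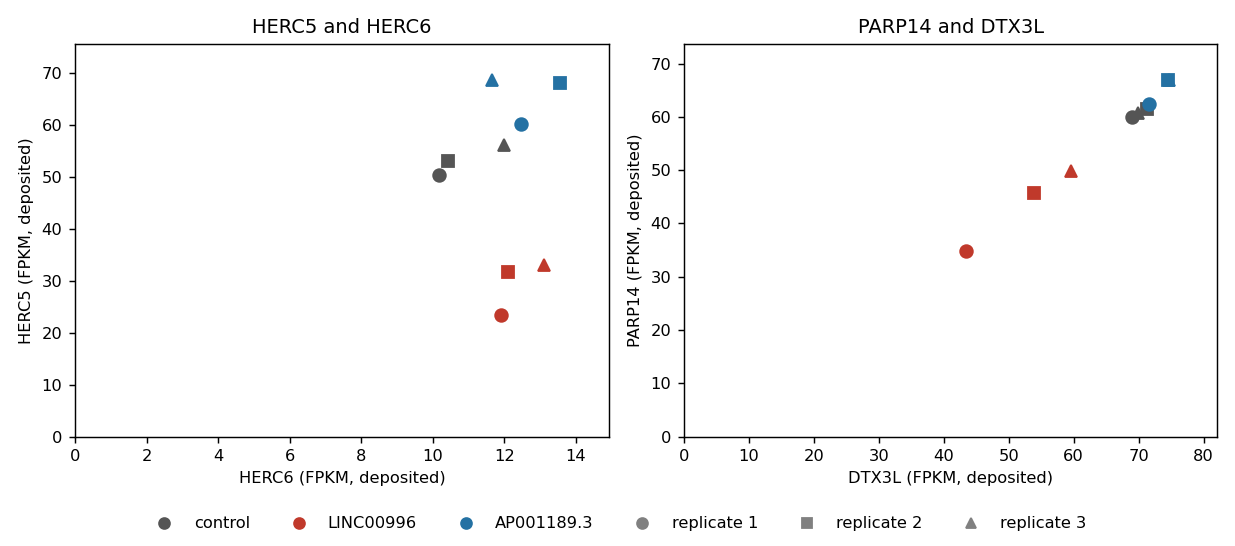
Deposited FPKM values of HERC5 against HERC6 (left) and of PARP14 against DTX3L (right), linear axes from 0, with 1 point per library, colour for the group and shape for the replicate. HERC5 fell in the LINC00996 group while HERC6 stayed between 10.2 and 13.6 FPKM in all 9 libraries, and PARP14 followed DTX3L from 43.4 FPKM of DTX3L upward.

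USP18 (ENSG00000184979, chromosome 22, 18149899 to 18177397, plus strand) removes ISG15 from proteins and also dampens signalling from the type I interferon receptor. It had 107, 98.4 and 102 CPM in the control libraries and 75.3, 75.8 and 82.9 CPM in the LINC00996 libraries. The groups did not overlap, and the log2 fold change was -0.39 (SE 0.09, edgeR adjusted p = 0.0101). The call was lost without control replicate 1 (log2 fold change -0.37, edgeR adjusted p = 0.0636) or LINC00996 replicate 2 (-0.37, edgeR adjusted p = 0.0572). USP41, a close relative of USP18 that could share its reads, had at most 7 counts in any library. The ratio of USP18 to ISG15 levels in FPKM was 0.0433 ± 0.00364 with the control plasmid and 0.0606 ± 0.0152 with LINC00996, and the latter spread was wide because ISG15 differed between its libraries. These groups overlapped, as LINC00996 replicate 1 at 0.0433 lay within the control range of 0.0394 to 0.0467. With AP001189.3 the ratio was 0.0473 ± 0.00348.

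PARP9 (ENSG00000138496, chromosome 3, 122527924 to 122564577, minus strand) and DTX3L (ENSG00000163840, chromosome 3, 122564238 to 122575203, plus strand) encode partners of 1 complex and overlap head to head by 340 bases. The library kit is not described as marking the strand, so reads within the overlap cannot be told apart. PARP9 had 343, 359 and 345 CPM in the control and 274, 316 and 341 CPM in the LINC00996 libraries. The LINC00996 libraries were all lower, the nearest of them by under 3 CPM, and the log2 difference of -0.17 had a 95% interval from -0.38 to 0.04 (edgeR adjusted p = 0.226). The difference of PARP9 was -0.09 without replicate 1 of the LINC00996 group. DTX3L had 408, 423 and 415 CPM in the control libraries and 259, 320 and 353 CPM in the LINC00996 libraries. All LINC00996 libraries lay below the control for DTX3L, with a log2 fold change of -0.42 (SE 0.11, edgeR adjusted p = 0.0165). The call of DTX3L was lost without control replicate 1, 2 or 3 (edgeR adjusted p = 0.0626, 0.0846 and 0.0717), with log2 fold changes of -0.44, -0.41 and -0.42. The ratio of PARP9 to DTX3L levels in FPKM was 0.552 ± 0.00557 in the control group, 0.659 ± 0.0314 in the LINC00996 group and 0.585 ± 0.0150 in the AP001189.3 group.

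PARP12 (ENSG00000059378, chromosome 7, 140023744 to 140063721, minus strand) is a mono-ADP-ribosyltransferase with antiviral activity. It had 262, 263 and 280 CPM in the control libraries and 165, 172 and 176 CPM in the LINC00996 libraries. PARP12 had the smallest adjusted p of the members (log2 fold change -0.65, SE 0.08, edgeR adjusted p = 0.000256), and replicate 1 of the LINC00996 group lay close to the other libraries of its group. PARP14 (ENSG00000173193, chromosome 3, 122680618 to 122730840, plus strand), a large macrodomain protein of the same family, had 635, 651 and 646 CPM in the control and 372, 485 and 528 CPM in the LINC00996 libraries. Its log2 fold change was -0.48 (SE 0.12, edgeR adjusted p = 0.0115), and the call was lost without control replicate 2 (-0.47, edgeR adjusted p = 0.061) or 3 (-0.48, edgeR adjusted p = 0.0584). PARP14 followed DTX3L closely, with a ratio of 0.867 ± 0.00500 in the control group, 0.830 ± 0.0239 in the LINC00996 group and 0.889 ± 0.0152 in the AP001189.3 group, though their genes are 105414 bases apart.

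Within the LINC00996 group the difference between libraries varied with GC content. Replicate 1 over the mean of replicates 2 and 3 was 1.52 for ISG15 (63.4% GC), 1.15 for UBA7 (58.3% GC) and 1.05 for UBE2L6 (57.2% GC). It was 0.730 for HERC5 (44.1% GC), 0.735 for PARP14 (42.4% GC), 0.772 for DTX3L (44.2% GC) and 0.836 for PARP9 (43.4% GC). Over the 10 members Spearman's correlation of this quotient with GC content was 0.90, as a description. With an offset for GC content in the fit, added after the data were seen, the same 8 members were lower, ISG15 had a log2 fold change of -0.89, HERC5 of -0.83, and HERC6 passed the threshold at 0.21 (edgeR adjusted p = 0.0325).

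In the AP001189.3 group, compared with the same control libraries, 7 of the 10 members were higher and 0 were lower by edgeR (quasi-likelihood test, adjusted over the 16023 genes tested). The risers were ISG15, UBA7, UBE2L6, HERC5, HERC6, USP18 and PARP9, and DTX3L, PARP12 and PARP14 did not pass the test. Of all genes tested 11.4% were called higher and 8.49% lower. Of these calls 57.2% were higher, against 48.3% by library size alone and 49.5% with the GC offset. The count of members called lower was also 0 at an unadjusted p under 0.05 and by DESeq2, which called 6 higher. The median log2 fold change was 0.20 over the members and -0.0013 over all genes, and groups did not overlap for 8 members, against 35.2% of all genes. With all 9 libraries in 1 fit 2 members were called, UBA7 and USP18, while the log2 fold changes of ISG15 (0.20), UBE2L6 (0.21) and HERC5 (0.30) kept their size.

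UBA7 had the highest fold change. It had 69.3, 69.7 and 77.2 CPM in the AP001189.3 libraries, all above the control range of 49.1 to 53.0 CPM (log2 fold change 0.49, SE 0.07, edgeR adjusted p = 6.62e-06). USP18 had 119, 136 and 131 CPM and did not overlap with the control either (log2 fold change 0.33, SE 0.06, edgeR adjusted p = 0.000224). HERC5 was at 291, 328 and 331 CPM against at most 271 CPM in the control (log2 fold change 0.30, SE 0.06, edgeR adjusted p = 0.000293).

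ISG15 had 1195, 1179 and 1243 CPM in the AP001189.3 libraries, and the lowest of these lay just above the highest control library at 1146 CPM. Its log2 fold change was 0.20 (SE 0.05, edgeR adjusted p = 0.00727). UBE2L6 had 387, 386 and 400 CPM, with a log2 fold change of 0.21 (SE 0.05, edgeR adjusted p = 0.00291). ISG15 and UBE2L6 lost their calls with an offset for gene length (0.07, edgeR adjusted p = 0.405, and 0.12, edgeR adjusted p = 0.0795). The call of ISG15 was also lost without control replicate 2 (edgeR adjusted p = 0.104) or AP001189.3 replicate 3 (edgeR adjusted p = 0.0626). With the GC offset the log2 fold change of ISG15 was -0.02 (edgeR adjusted p = 0.896) and that of UBE2L6 was 0.08 (edgeR adjusted p = 0.257), whereas UBA7 (58.3% GC, between the others) at 0.35, USP18 at 0.28 and HERC5 at 0.35 kept their calls.

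HERC6 had 73.2, 79.3 and 68.2 CPM in the AP001189.3 libraries and overlapped with the control (log2 fold change 0.21, SE 0.07, edgeR adjusted p = 0.0356). PARP9 was at 390, 385 and 391 CPM, above every control library (log2 fold change 0.15, SE 0.05, edgeR adjusted p = 0.0231). These were the weakest calls, as HERC6 was called in 6 and PARP9 in 8 of 14 alternative fits. For the members not called, the log2 difference was 0.07 for DTX3L (95% interval -0.03 to 0.17), 0.10 for PARP12 (-9.07e-05 to 0.21) and 0.11 for PARP14 (0.01 to 0.20). PARP14 was called in 3 of 14 alternative fits, among them the GC offset (0.17, edgeR adjusted p = 0.00832). With that offset DTX3L was at 0.12 (edgeR adjusted p = 0.0767) and PARP12 at 0.01 (edgeR adjusted p = 0.931).

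**Figure D3:**
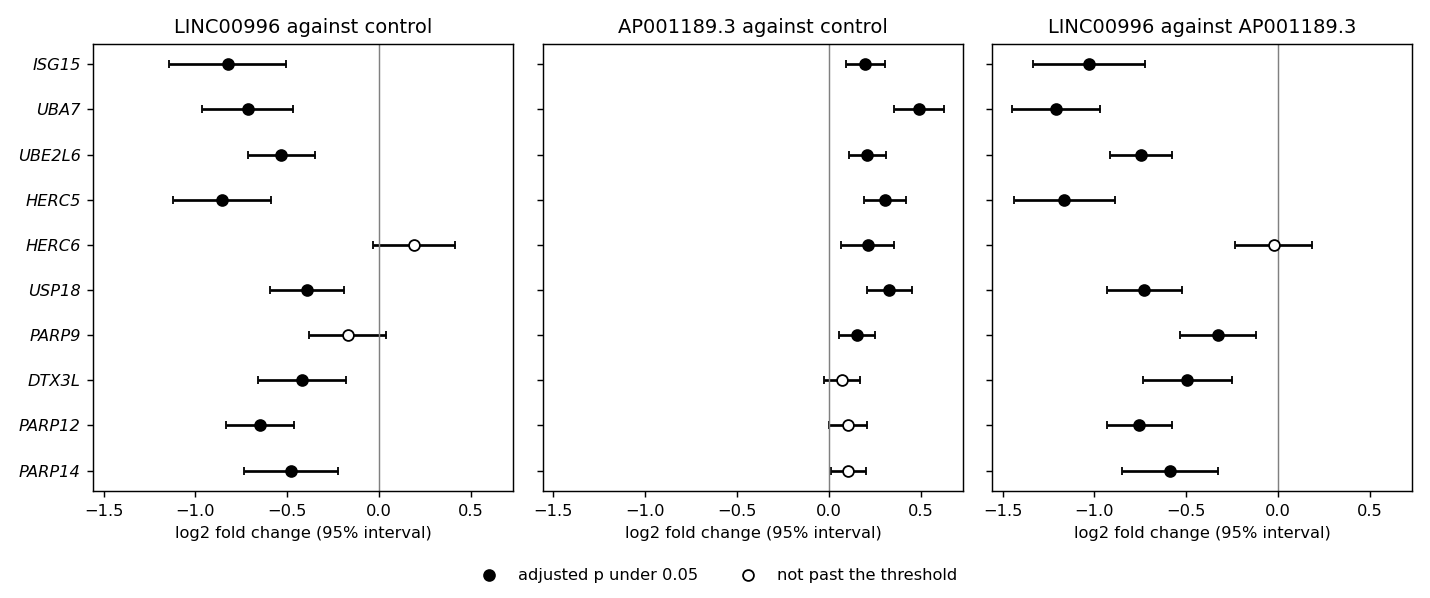
Log2 fold change of each member with its 95% interval in the 3 comparisons, filled where the edgeR adjusted p was under 0.05. In the left panel 8 members are filled below 0, in the middle panel 7 are filled above 0, and in the right panel HERC6 alone is not called. The panels share libraries and are not independent of each other.

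Set against each other, the plasmid groups differed in 9 of the 10 members, all lower in the LINC00996 group (edgeR quasi-likelihood test, adjusted over the 16095 genes tested). Of all genes tested 12.1% were called lower and 9.38% higher, and the groups did not overlap for 9 members and for 39.2% of all genes. By library size alone 56.1% of the called genes were higher, against 43.7% with TMM scaling, and it was 55.6% with the GC offset. No called member changed sign under either. The count of members called higher was 0, also at an unadjusted p under 0.05 and by DESeq2. The median log2 fold change was -0.74 over the members and 0.02 over all genes.

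The log2 fold change between these groups was -1.21 for UBA7 (SE 0.11, edgeR adjusted p = 2.02e-05), -1.16 for HERC5 (SE 0.13, edgeR adjusted p = 6.62e-05) and -1.03 for ISG15 (SE 0.14, edgeR adjusted p = 0.000354). It lay between -0.76 and -0.49 for PARP12, UBE2L6, USP18, PARP14 and DTX3L. PARP9 differed least among the called members (-0.33, edgeR adjusted p = 0.0284) and was called in 9 of 14 alternative fits. HERC6 did not pass the test at -0.02, with a 95% interval from -0.24 to 0.19 (edgeR adjusted p = 0.885), which leaves room for a change of that size in either direction. Without replicate 1 of the LINC00996 group the same 9 were called, with UBA7 at -1.27, HERC5 at -1.02 and ISG15 at -1.25.

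The members were also described across the 9 libraries by Pearson's r of log2 CPM, which follows the separation of the groups as well as the spread within them. The highest r among the members was that of DTX3L and PARP14, at 0.998. HERC6 had r between -0.19 and 0.10 with each of the other 9 members. Against the mean of the standardized levels of the 10 members, r was 0.985 for HERC5, 0.979 for USP18 and 0.03 for HERC6. Each member is part of that mean, which raises its own r. Of 14619 other genes, those most like that mean were IFIT1 (r 0.998), HEG1 (0.995), CASP4 (0.995), ZCCHC2 (0.995) and IFIT2 (0.994). IFIT1 and IFIT2 are interferon-stimulated RNA-binding proteins, and CASP4 is an inflammatory caspase. These genes were chosen for following the members over the same libraries, so their own changes between groups are no separate evidence.

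Upstream of the members are the interferons, their receptors and the kinases and transcription factors that carry their signal, such as STAT2 and IRF9. In a list of 13 such genes, 12 were tested in the LINC00996 group and 5 were lower: IFNL1, IFNL2, IFNL3, IFNAR1 and STAT2. None was higher, also at an unadjusted p under 0.05 and by DESeq2. IFNL1, a type III interferon, had 8.48, 7.17 and 9.33 CPM in the control libraries, 2.96, 1.40 and 1.46 CPM in the LINC00996 libraries and 14.9, 20.9 and 19.4 CPM in the AP001189.3 libraries, and no groups overlapped. Its log2 fold change against the control was -2.09 (edgeR adjusted p = 0.000229) in the LINC00996 group and 1.14 (edgeR adjusted p = 9.08e-07) in the AP001189.3 group. IFNL2 (-1.60 and 1.41) and IFNL3 (-1.57 and 1.33) were called in the same directions but are nearly identical in sequence, so that their separate counts are uncertain.

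STAT2 had 359, 353 and 361 CPM in the control, 257, 249 and 254 CPM in the LINC00996 and 436, 447 and 454 CPM in the AP001189.3 libraries. No groups overlapped, with log2 fold changes of -0.50 (edgeR adjusted p = 0.00109) and 0.32 (edgeR adjusted p = 2.4e-05). IRF9, which works with STAT2, had log2 differences of 0.23 and 0.31 that did not pass the test. IFNB1, which encodes interferon beta, had 18, 7 and 26 counts in the control, 7, 2 and 10 in the LINC00996 and 39, 42 and 61 in the AP001189.3 libraries. It was too low to be tested in the LINC00996 group against the control and was higher in the AP001189.3 group (log2 fold change 1.53, edgeR adjusted p = 0.00198). Of the 13 genes 5 were called higher with AP001189.3 and 1 lower, IFNAR1, a type I interferon receptor chain. IFNAR1 was lower in the LINC00996 group too (-0.45, edgeR adjusted p = 0.0406).

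**Figure D4:**
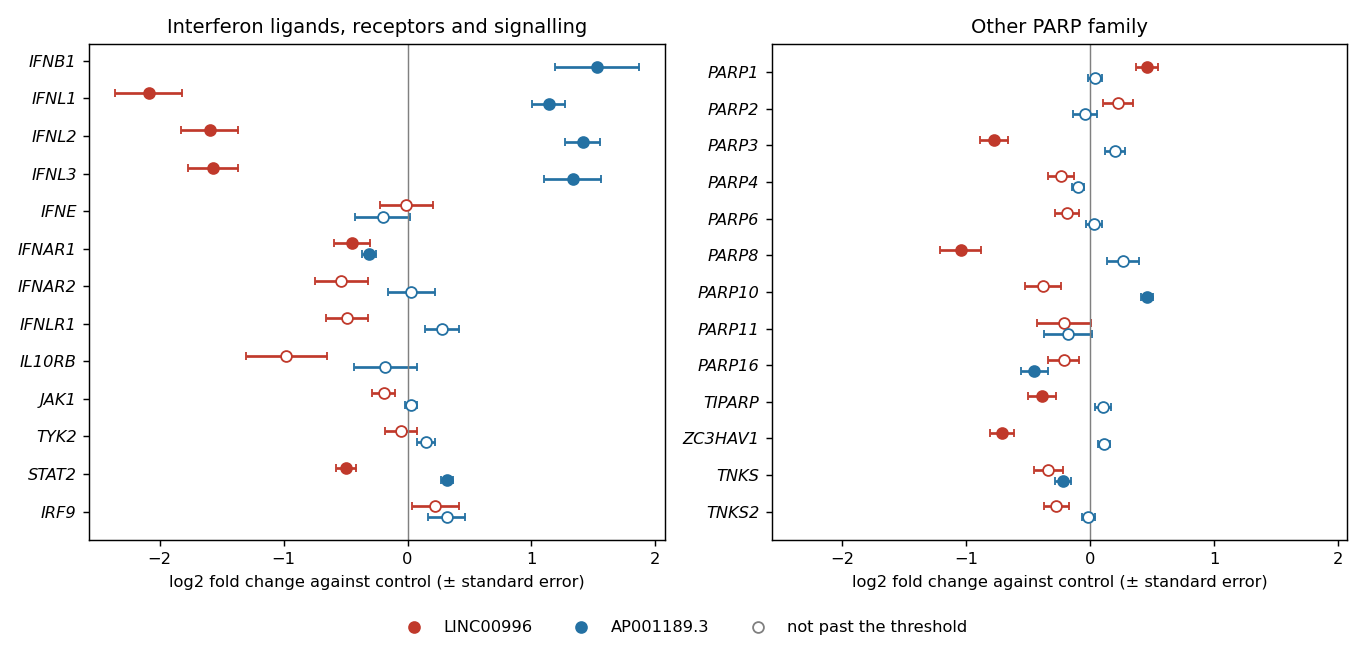
Log2 fold change against the control (± standard error) of the interferon ligands, receptors and signalling genes (left) and of the other PARP family members (right), red for the LINC00996 group and blue for the AP001189.3 group, filled where the edgeR adjusted p was under 0.05. IFNL1 lies at -2.09 and 1.14 and STAT2 at -0.50 and 0.32, and IFNB1 has no red point because it was not tested there.

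Other ISG15 enzymes also act on ubiquitin. Of the 5 tested, TRIM25, ARIH1, USP16, USP21 and USP24, 0 were called in the LINC00996 group by edgeR or by DESeq2, and 2 had an unadjusted p under 0.05, both lower. TRIM25, a ubiquitin ligase that can also attach ISG15, had a log2 difference of -0.09 in the LINC00996 group (edgeR adjusted p = 0.512) and of 0.32 in the AP001189.3 group (edgeR adjusted p = 4.45e-05). Of these enzymes 1 was higher and 2 were lower with AP001189.3. ITGAL, part of the receptor for free ISG15 on leukocytes, had at most 8 counts in any library.

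Among 13 other PARP family genes tested, 4 were lower and 1 was higher in the LINC00996 group. The lower ones included ZC3HAV1, an antiviral protein that binds RNA (-0.71, edgeR adjusted p = 0.000398), PARP3 (-0.78, edgeR adjusted p = 0.0006) and PARP8 (-1.04, edgeR adjusted p = 0.000976). The higher one was PARP1, the main DNA-damage PARP (0.46, edgeR adjusted p = 0.00272). PARP10 had a log2 difference of -0.38 (edgeR adjusted p = 0.0885) in the LINC00996 group and was higher in the AP001189.3 group, at 0.46 (edgeR adjusted p = 4.45e-07), where 2 others were lower. PARP15, which lies between DTX3L and PARP14 on chromosome 3, had at most 10 counts in any library. Of the 6 hydrolases that remove ADP-ribose, 0 were called in the LINC00996 group by edgeR or DESeq2, and 1 had an unadjusted p under 0.05. With AP001189.3, 1 of the 5 tested was higher and 1 was lower.

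Of 11 paralogs of the conjugation enzymes, DTX2 alone was called in the LINC00996 group (-0.51, edgeR adjusted p = 0.0103), and 1 was higher and 2 were lower in the AP001189.3 group. UBA1 and UBE2L3, the ubiquitin counterparts of UBA7 and UBE2L6, had log2 differences of 0.03 and -0.08 in the LINC00996 group and did not pass the test.

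The nearest protein-coding genes on either side of the members were 15, of which 11 were tested. In the LINC00996 group 6 were lower and 1 was higher. HES4 (-0.93, edgeR adjusted p = 0.00573) and AGRN (-0.48, edgeR adjusted p = 0.0096) flank ISG15, and SMTNL1 (-1.27, edgeR adjusted p = 3.52e-05) and SERPING1, the C1 inhibitor of complement (-2.43, edgeR adjusted p = 2.57e-06), flank UBE2L6. KDM7A next to PARP12 (-1.17, edgeR adjusted p = 0.000145) and PPM1K next to HERC6 (-0.98, edgeR adjusted p = 0.00148) were lower as well. PYURF next to HERC5 was higher (0.84, edgeR adjusted p = 9e-04). KPNA1 and HSPBAP1, which flank the PARP9, DTX3L and PARP14 stretch, had log2 differences of -0.02 and -0.14 and did not pass the test. With AP001189.3, 4 of the 11 were higher, HES4, AGRN, PPM1K and PYURF, and 1 was lower, SERPING1.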

How the data were processed

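The 9 libraries were grouped by their titles, which begin with PC3, L996 or RP11. Those labelled PC3.1, PC3.2 and PC3.3 were read as 3 controls. The L996 libraries were read as the LINC00996 group and the RP11 libraries as the AP001189.3 group, and each lncRNA was high in that group alone. The authors deposited raw counts per gene, made with HISAT2 2.0.5 and featureCounts 1.5.0-p3 according to their notes, and FPKM values, which correct for length. Coordinates are GRCh38 as deposited. Counts were tested per comparison on 6 libraries with edgeR 4.0.16 in R 4.3.3 (filterByExpr, TMM, robust quasi-likelihood test), and p-values were adjusted over all genes tested (Benjamini-Hochberg, threshold 0.05). CPM used TMM factors and log2 CPM a prior count of 2. Levels between genes were compared by the deposited FPKM values. The code was tested on simulated data. Alternatives included DESeq2 1.42.0, library size alone, other filters, all 9 libraries in 1 fit, a replicate block, each library left out, and offsets for gene length and GC content (longest GENCODE transcript). The members and lists were chosen with earlier results of these data known. Named genes were the members, for each related list up to 3 genes called in the LINC00996 group (by adjusted p) and genes low or not called, called neighbours, and the 5 genes most like the members' mean (at least 1 CPM on average). Other genes named were chosen after their values were seen. Promoter sequences are from RefSeq (GRCh38.p14). 1 gene of the interferon list is not reported here.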

Additional observations from a re-analysis of the deposited data

How the results depend on the processing

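Over 14 alternative fits per comparison, the 8 members called lower in the LINC00996 group stayed lower in each, and ISG15, UBA7, UBE2L6, HERC5 and PARP12 stayed called in each. The number of members called against the control was 6 to 9 when 1 library was left out. Against the AP001189.3 group it was 8 to 9. In the AP001189.3 group against the control it was 4 to 7, with 4 without control replicate 2, and 2 with all 9 libraries in 1 fit. Requiring also a log2 change of at least 1 in size left 0 members in either group against the control and 3 between the plasmid groups. Signs reversed for ISG15 in the AP001189.3 group under the GC offset (-0.022), and for HERC6 between the plasmid groups by library size alone (0.038), with the length offset (0.024), and between -0.072 and 0.038 with 1 library left out, above 0 without LINC00996 replicate 1 (0.0057) and without AP001189.3 replicate 2, and the cause was not tested. Over all genes, 3588 were called in the LINC00996 group, 6021 with the GC offset and 1925 to 5481 with 1 library left out. In the AP001189.3 group 3180 were called, against 437 with all 9 libraries in 1 fit, and 1914 to 3598 with 1 library left out. Between the plasmid groups 3452 were called, 5979 with the GC offset and 1840 to 6828 with 1 library left out. With that fold requirement these counts were 759, 158 and 666.

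Nothing in the labels pairs the libraries by number. Deviations of same-numbered libraries correlated between 0.0058 and 0.31. In each comparison libraries numbered 1 and 3 matched best with their own number and those numbered 2 did not. The correlation with GC content was highest in replicate 1 of each group (-0.0036 control, 0.43 LINC00996, 0.35 AP001189.3). It was lowest in replicate 3 (-0.28, -0.42 and 0.20). Libraries thus shared some structure by number, whose source was not tested, and the main fits did not take the numbers as pairs. With a replicate block 8, 7 and 9 members were called in the 3 comparisons and 4500, 3466 and 3772 genes in all.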
